A study of Mus musculus with 16 samples.

Results

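Peritubular myoid cells of the newborn mouse testis were taken from a single-cell table by the transcripts of 3 genes. A barcode was kept as a cell when it had at least 2000 detected genes and no more than 10% of its unique molecular identifiers (UMIs, each counting 1 captured mRNA) from mitochondrial genes. A kept cell was a myoid cell when it held at least 5 UMIs of *Acta2* (smooth muscle alpha-actin), at least 2 of *Myh11* (smooth muscle myosin heavy chain) and at most 2 of *Amh* (anti-Müllerian hormone, made by Sertoli cells). This gave 1231 myoid cells of 11279 kept cells, 728 of 6329 in wild type and 503 of 4950 in the library labelled *Ddx5* knockout, below called the KO-labelled library. These are 11.5% (95% Clopper-Pearson interval 10.7 to 12.3) and 10.2% (9.33 to 11.04) of the kept cells. The cells were thus chosen by their measured counts of these 3 genes, so every level set against other cells is a description, and none is tested.

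The study asked what loss of the RNA helicase DDX5 does to neonatal germ cells. Both groups were whole testes at postnatal day 2, dissociated with TrypLE and captured with a Chromium 3′ v3 kit. One group was wild type and the other was labelled *Ddx5* conditional knockout. In the latter, *Ddx5* flox/flox mice had been crossed with *Mvh*-Cre mice, whose recombinase is driven in germ cells, and *Ddx5* +/- males were then mated with *Ddx5* flox/flox females to give *Ddx5* -/- pups. The deletion was therefore aimed at the germ cells, and the myoid cells are somatic neighbours of the cells in which Cre is made. The numbers of animals pooled are not given in the sources used here. The labels list 8 libraries for each genotype, but the barcodes carry no library number, so each genotype is 1 library here and no test between them was run.

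Peritubular myoid cells are flattened, contractile cells that wrap the seminiferous tubules. With the Sertoli cells inside the tubule they lay down the basement membrane between them, their contraction moves tubule fluid, and they secrete factors that reach the germ cells. In the fetal and newborn testis they arise from interstitial mesenchyme under Desert hedgehog from Sertoli cells, and they still divide. Their contractile genes belong to the smooth muscle programme, in which serum response factor binds a short DNA element, the CArG box, together with its partner myocardin.

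The table held 30451 genes and 12186 barcodes, and the myoid cells carried 8966238 UMIs in wild type and 6526895 in the KO-labelled library. Their median was 11085 UMIs and 3606 genes per cell in wild type and 11664 UMIs and 3725 genes in the KO-labelled library. Of the barcode sequences, 12 occurred in both libraries and none of the 12 was a myoid cell. A doublet caller marked 51 myoid cells (4.14%) against 529 of the 10048 other kept cells (5.26%). The genotype of each library rests on the number of cells the study states after its filter, and the targeted gene went against the label: *Ddx5* was at 1158 CPM (the UMIs of a gene per 1000000 UMIs of the group) in 118 germ cells of wild type and at 1736 CPM in 12 germ cells of the KO-labelled library. The study itself reports a strong decrease of *Ddx5* mRNA in its knockout, by qRT-PCR on sorted germ cells of the same age. In the myoid cells *Ddx5* was at 688 CPM (671 to 705) in wild type and 607 CPM (588 to 626) in the KO-labelled library, where the brackets hold exact 95% Poisson intervals, as they do for every summed level below. Over all barcodes CRE gave 0 UMIs in wild type and 20 in the KO-labelled library, and the germ cell markers of the other kept cells summed to 149.5 and 22.2 CPM. No CRE UMI was found in a myoid cell, and GFP gave 6 UMIs in wild type and 0 in the KO-labelled library. All intervals cover counting error only, and values given in pairs are wild type first and the KO-labelled library second.

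The cells carried the myoid label in both libraries. *Acta2*, set to at least 5 UMIs by the rule, had a median of 42 UMIs per cell in wild type and 43 in the KO-labelled library, and *Myh11* a median of 4 and 3. The summed level was 3939 (3898 to 3980) and 3660 (3614 to 3707) CPM for *Acta2* and 381 (368 to 394) and 323 (309.6 to 337) CPM for *Myh11*. The 3 markers the rule did not use were present in both libraries: *Tagln*, which encodes the actin-binding protein transgelin, was at 937 (917 to 958) and 822 (800.3 to 844) CPM, *Mgp*, an inhibitor of matrix calcification, at 1778 (1751 to 1806) and 1720 (1688 to 1752) CPM, and *Col15a1*, a collagen of the basement membrane zone, at 302 (291 to 314) and 308 (295 to 322) CPM. Stromal-like cells outside the myoid cells had 50.6 and 50.4 CPM of *Tagln*, 126 and 113 CPM of *Mgp* and 44.3 and 37.4 CPM of *Col15a1*, and Sertoli-like cells had 5.06 and 3.05, 8.77 and 3.35 and 1.98 and 0.968 CPM. On the GRCm38 annotation *Acta2* lies at chr19:34241090-34255590, minus strand, *Myh11* at chr16:14194535-14291372, minus strand, *Tagln* at chr9:45929619-45936058, minus strand, *Mgp* at chr6:136872435-136875823, minus strand, and *Col15a1* at chr4:47208161-47313167, plus strand, all as protein-coding genes.

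**Figure D1:**
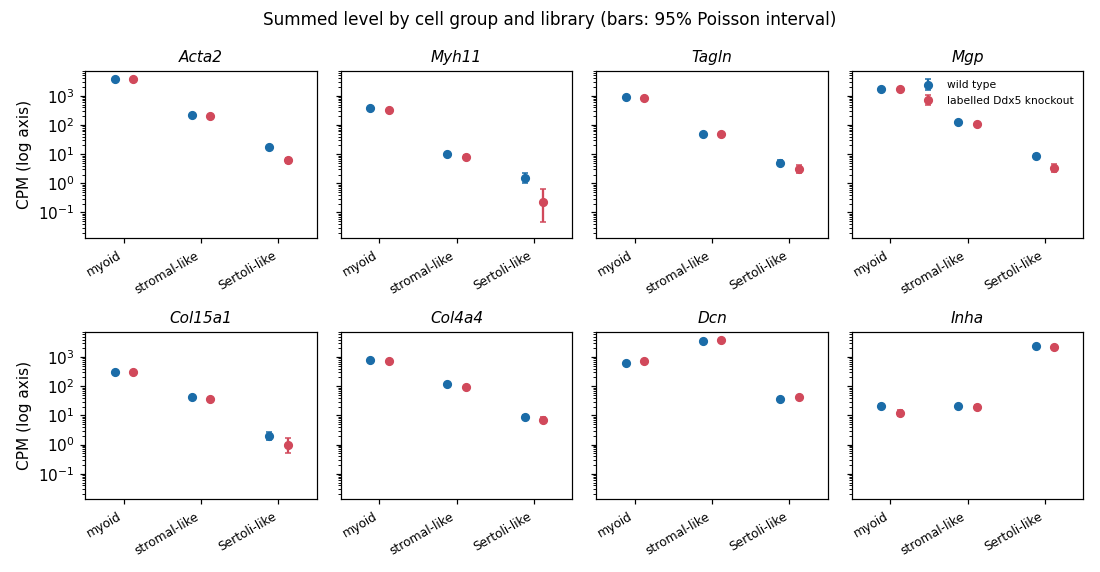
Summed level (CPM, log axis) of 8 genes in myoid, stromal-like and Sertoli-like cells, with 1 point per library and 95% Poisson bars. *Acta2*, *Myh11*, *Tagln*, *Mgp*, *Col15a1* and *Col4a4* are highest in myoid cells of both libraries, *Dcn* in stromal-like cells (3513 and 3770 CPM) and *Inha* in Sertoli-like cells (2333 and 2228 CPM).

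Repeating the clustering of the study placed 863 of the 1231 cells (70.1%) in cluster 3, whose leading genes were *Mgp*, *Tagln*, *Acta2*, *Igfbp5* and *Myh11* and which was therefore called peritubular myoid-like. Another 257 lay in cluster 5, which was led by cell cycle genes and stayed unnamed, 100 in the stromal-like cluster, 6 in the macrophage-like, 3 in the Leydig-like and 2 in the germ cell-like cluster. None was in the Sertoli-like cluster or in cluster 4, which was also led by cell cycle genes. Conversely, 652 of the 1515 cells of cluster 3 were not counted as myoid cells. Of these 645 held fewer than 2 *Myh11* UMIs, and for 619 this was the only reason. The rule therefore took 57.0% of the cells of the cluster.

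Cells next to the limits differed by degree. The 368 cells with exactly 2 *Myh11* UMIs, just inside, had 635 CPM of *Tagln* and 1653 CPM of *Mgp*, and the 509 cells with 1 *Myh11* UMI that met the other limits had 481 and 1278 CPM. The 45 cells with 5 to 9 *Acta2* UMIs had 113 CPM of *Tagln*, while the 48 with 1 to 4 *Acta2* UMIs had 27.3 CPM. At the *Amh* limit both Sertoli and myoid transcripts differed. The 55 cells with 1 or 2 *Amh* UMIs had 49.97 CPM of *Cst12*, a Sertoli cystatin, 722 CPM of *Tagln*, 1639 CPM of *Mgp* and 260 CPM of *Col15a1*. The 57 cells above the limit had 1100.4 CPM of *Cst12* and less of the others, at 301, 665 and 126 CPM, with a median of 27213 UMIs per cell against 11107.

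Against all other kept cells, 294 of 19848 genes compared were at least 2-fold higher in myoid cells (1.48%) and 572 at least 2-fold lower (2.88%), on the log2 ratio of CPM with 10 CPM added. After *Myh11* and *Acta2* the highest ratios belonged to *Tagln* (log2 ratio 3.67), *Mgp* (3.31), *Fbxl22* (3.07), which encodes an F-box protein of muscle, and *Col4a4* (2.98), a basement membrane collagen chain. *Igfbp5*, an insulin-like growth factor binding protein, followed at 869.9 and 819.8 CPM against 105 and 93.8 CPM in the other cells. *Tmem100* (398 and 351 against 40.6 and 41.8 CPM), the mesenchymal cadherin *Cdh11* (505 and 544 against 75.3 and 83.3 CPM) and the ETS transcription factor *Etv1* (184 and 219 against 23.7 and 28.7 CPM) were also among the 15 highest, as was *Col15a1* (2.63). *Kcnk2*, a mechanosensitive potassium channel, was at 96.03 and 102 CPM against 8.97 and 9.87 CPM, a ratio of 10.5 (9.76 to 11.4). The secreted protein gene *C1qtnf3* was at 218 and 154 CPM against 27.3 and 24.5 CPM.

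The genes at the other end were those of Sertoli cells, the second largest cluster (2452 cells). *Cst12* had the lowest ratio (log2 ratio -5.72), at 8.36 and 5.36 CPM in myoid cells against 959.6 and 811 CPM in the other cells. All 12 Sertoli markers were at least 2-fold lower (median log2 ratio -4.41), as were 8 of 10 Leydig markers and 3 of 9 germ cell markers. By library, 4 of 8 germ cell markers were at least 2-fold lower in wild type and 0 of 7 in the KO-labelled library. None of 10 endothelial markers passed 2-fold in either direction. Most of what follows sets the 907 non-cycling myoid cells against the 4065 non-cycling cells of the stromal-like cluster, the interstitial mesenchyme of the same libraries. There 228 of 15773 genes compared were at least 2-fold higher in myoid cells (1.45%) and 239 at least 2-fold lower (1.52%). These shares are the background of the list counts against stromal-like cells below.

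The contractile apparatus set the myoid cells apart from stromal-like cells. Of its 42 genes compared, which leave out *Acta2* and *Myh11* of the selection rule, 19 were at least 2-fold higher in myoid cells and 1 was lower, with a median log2 ratio of 0.84 against -0.02 over all genes compared. *Tagln* led the list with 1067 and 941 CPM against 49.5 and 51.2 CPM (log2 ratio 4.08). The tropomyosin *Tpm1*, which lies along actin filaments, was at 1862 and 1862 CPM against 373 and 349 CPM, a ratio of 5.15 (5.03 to 5.26). *Lmod1*, which starts actin filaments in smooth muscle, was at 38.5 and 48.8 CPM against 6.26 and 3.90 CPM.

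Genes of the myosin motor followed the same direction in both libraries. *Myl9*, the regulatory light chain, was at 1404 and 1318 CPM against 394 and 338 CPM, *Mylk*, the kinase that switches it on, at 414 and 411 against 128 and 129 CPM, and the non-muscle heavy chain *Myh9* at 201 and 196 against 42.4 and 41.4 CPM. The phosphatase subunit *Ppp1r12b*, which works against *Mylk*, was also higher (57.2 and 52.4 against 20.1 and 19.4 CPM), but its relative *Ppp1r12a* and the kinases *Rock1* and *Rock2* had log2 ratios of only 0.15, -0.05 and 0.04. Calponins differed from each other: *Cnn2* was at 565 and 573 CPM against 137 and 118 CPM, while *Cnn1*, the smooth muscle calponin of mature vessels, was low at 9.53 and 11.3 CPM against 1.29 and 0.946 CPM.

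Other genes of the contractile list, chosen here after their values were seen, were at low levels or below stromal-like cells. *Actg2*, the enteric actin, was at 22.2 and 22.01 CPM against 0.695 and 1.28 CPM in stromal-like cells (log2 ratio 1.55). *Kcnmb1*, a subunit of the calcium-activated potassium channel, was at 5.03 and 4.99 against 0.0497 and 0.278 CPM (0.56). *Pln*, the phospholamban gene, gave 1 UMI in each library over all myoid cells, and *Pln*, *Synpo2* and *Mustn1* had too few counts to be compared. Desmin (*Des*), an intermediate filament of muscle, was lower than in stromal-like cells (87.9 and 63.1 against 132 and 118 CPM, log2 ratio -0.63). Vimentin (*Vim*), the mesenchymal intermediate filament, was the only gene of the list at least 2-fold lower over both libraries, at 1170 and 1233 CPM against 3695 and 4126 CPM. In the KO-labelled library alone 2 were, the other being *Cryab*, a small heat shock protein (log2 ratio -1.03).

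**Figure D2:**
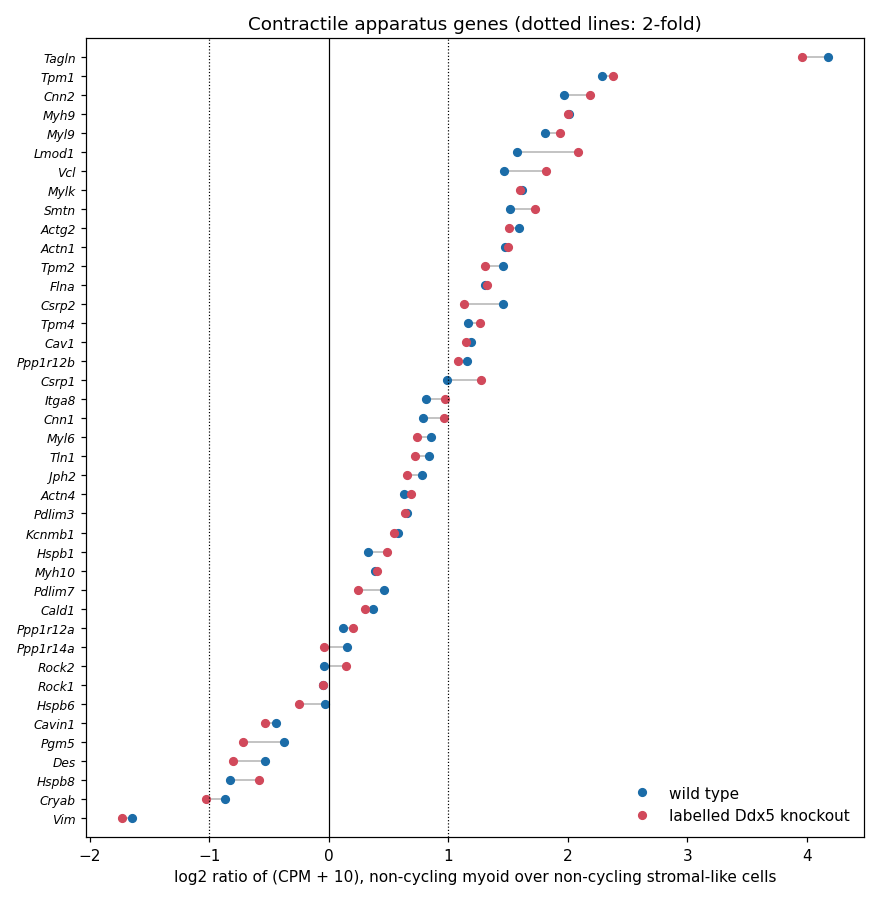
Log2 ratio of CPM (10 CPM added) in non-cycling myoid over non-cycling stromal-like cells for 41 of the 42 contractile genes compared, with 1 point per library and dotted lines at 2-fold. The libraries lie close together for nearly all genes, with *Tagln* at the top (pooled log2 ratio 4.08) and *Vim* at the bottom (-1.69).

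The share of cells with a *Tagln* transcript gave the same order where depth was made equal. With each cell thinned to 5000 UMIs, which left out 3 myoid, 117 stromal-like and 20 Sertoli-like cells, *Tagln* was found in 75.6% of myoid cells, 12.3% of stromal-like cells and 1.44% of Sertoli-like cells, the last of which should lack it and mark the background. Without thinning the shares were 86.2%, 17.5% and 3.18%, at median depths of 11085 and 11664, 8983 and 9137, and 11925 and 13410 UMIs. Desmin was found in 30.4% of thinned myoid cells, 40.7% of stromal-like and 0.617% of Sertoli-like cells. Thinned *Myl9* was found in 98.8%, 71.1% and 13.4% of myoid, stromal-like and Sertoli-like cells (100%, 83.7% and 28.4% unthinned).

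Promoters were read for CArG boxes, searched by name on both strands with the palindromic pattern of serum response factor and with no overlap with another motif considered. The windows run from 250 bases before to 50 bases after the RefSeq start on GRCm38.p6. A box was found in 4 of the 39 contractile genes with a window (10.3%) and in 488 of all 27025 genes with a window (1.81%). A gene was counted when any of its windows held a box. Of the 15 genes with the highest log2 ratio in myoid cells 10 had a window, and 3 of these held a box (30%). *Fbxl22*, which is outside the contractile list, was among them. Below are 100 bases around each box, 5′ to 3′ on the gene's strand with the box in capitals, shown because the genes belong to the programme that sets the myoid cells apart. *Myl9* is at chr2:156775258-156775357 (plus strand, box starting at -161), *Cnn2* at chr10:79988499-79988598 (plus strand, box starting at -56), *Vcl* at chr14:20929148-20929247 (plus strand, box starting at -227), *Myl6* at chr10:128493010-128493109 (minus strand, box starting at -50) and *Fbxl22* at chr9:66514744-66514843 (minus strand, box starting at -222), each position counted from the annotated start.
Myl9: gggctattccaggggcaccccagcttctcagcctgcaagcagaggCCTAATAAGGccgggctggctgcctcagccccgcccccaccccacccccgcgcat
Cnn2: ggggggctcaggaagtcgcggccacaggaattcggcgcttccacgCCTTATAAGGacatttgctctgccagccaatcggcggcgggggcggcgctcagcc
Vcl: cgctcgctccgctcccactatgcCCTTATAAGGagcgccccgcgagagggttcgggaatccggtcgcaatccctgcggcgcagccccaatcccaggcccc
Myl6: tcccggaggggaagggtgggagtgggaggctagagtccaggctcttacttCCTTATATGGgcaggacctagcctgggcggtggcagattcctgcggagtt
Fbxl22: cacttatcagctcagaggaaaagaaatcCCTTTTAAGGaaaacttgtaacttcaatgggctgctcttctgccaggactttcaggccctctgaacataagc

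In myoid cells *Myl9*, *Cnn2*, *Vcl* (vinculin, which links actin to adhesion sites) and *Fbxl22* were each at least 2-fold higher than in stromal-like cells (log2 ratios 1.87, 2.07, 1.62 and 3.74), and *Myl6*, the essential myosin light chain, was at 0.81. A match is a description of these letters and not a bound site. *Tagln* and *Tpm1* had no match in this window, which says nothing on other windows or on the factor.

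Among the regulators of smooth muscle genes, 3 of 17 compared were at least 2-fold higher in myoid than in stromal-like cells and 1 was lower. *Myocd*, the gene of myocardin, was at 42.1 and 41.97 CPM against 1.89 and 1.89 CPM (log2 ratio 2.13). It was found in 17.02% of thinned myoid cells, 0.976% of stromal-like and 0.123% of Sertoli-like cells, and in 33.8%, 1.66% and 0.326% without thinning. The transcription factor *Mef2c*, a partner of muscle genes, was at 213 and 233 CPM against 58.6 and 50.7 CPM, and the mesenchymal homeobox gene *Prrx1* at 65.7 and 71.9 against 18.3 and 23.2 CPM.

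The partner of myocardin stayed under 2-fold. *Srf*, the serum response factor gene, was low in both, at 9.19 and 9.76 CPM against 7.45 and 5.40 CPM (log2 ratio 0.24), and the related cofactors *Mrtfa* and *Mrtfb* had log2 ratios of -0.20 and -0.26. *Klf4*, which represses smooth muscle genes in cultured muscle, was the regulator at least 2-fold lower, at 36.8 and 29.5 CPM against 155 and 115 CPM, joined in the KO-labelled library alone by *Prrx2* (log2 ratio -1.06).

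Basement membrane genes were split between chains that were higher in myoid cells and components shared with the stroma. Of 24 genes compared with stromal-like cells, 5 were at least 2-fold higher and 3 lower (median log2 ratio 0.11). The collagen IV chains of the common network, *Col4a1* and *Col4a2*, were at 1584 and 1382 CPM against 393 and 333 CPM and 725 and 671 CPM against 205 and 185 CPM. The laminin chain *Lamc3* was at 226 and 199 CPM against 92.3 and 67.1 CPM. *Mgp* (3.90) and *Col15a1* (2.72) had the highest log2 ratios of the list, which does not hold *Col4a3* and *Col4a4*.

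*Col4a3* and *Col4a4*, chains of another collagen IV network, stood out further. *Col4a4* was at 811 and 781 CPM against 118 and 92.5 CPM, and its partner *Col4a3*, named after its values were seen, at 106 and 95.3 CPM in all myoid cells against 11.2 and 9.09 CPM in stromal-like and 2.51 and 3.28 CPM in Sertoli-like cells. The genes lie head to head on chromosome 1, *Col4a3* at chr1:82586921-82722059, plus strand and *Col4a4* at chr1:82448423-82586849, minus strand, with 72 bases between their annotated starts. The remaining chains, *Col4a5* and *Col4a6*, differed little from stromal-like cells (log2 ratios 0.11 and -0.23). The laminins *Lamb1* (0.11) and *Lamc1* (0.64), the nidogen *Nid1* (0.02) and perlecan, *Hspg2* (0.56), stayed under 2-fold on the log2 scale, and the calcium-binding matrix genes *Smoc1* (-1.59) and *Smoc2* (-1.11) and the dystroglycan ligand *Egflam* (-1.06) were lower.

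Genes of the interstitial matrix were on the whole lower in myoid than in stromal-like cells. Of 40 compared, 2 were at least 2-fold higher and 16 at least 2-fold lower, with a median log2 ratio of -0.76. The proteoglycan *Dcn* (decorin) was at 660.5 and 782 CPM against 3574 and 3793 CPM, and *Lum* (lumican) at 17.9 and 41.97 against 158 and 207 CPM. Fibrillar collagens were also lower, as for *Col3a1* at 1125 and 1241 CPM against 3299 and 3303 CPM, but *Col1a2*, a chain of collagen I, was close (2237 and 2165 against 2734 and 2701 CPM). The exceptions were *Col14a1* (32.9 and 26.8 against 4.97 and 4.34 CPM), a collagen that coats fibrils, and *Timp3* (258 and 247 against 128 and 104 CPM), an inhibitor of matrix proteases, the latter under 2-fold in wild type alone (log2 ratio 0.96). Against all other kept cells, which include the matrix-poor Sertoli cells, the same list had 5 genes higher, 6 lower and a median of 0.03, so its direction depended on the cells compared.

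Of the integrins and matrix receptors, 1 of 17 compared was at least 2-fold higher and 1 at least 2-fold lower than in stromal-like cells, beside 1.45% and 1.52% of all genes compared. *Itga1*, which pairs with the beta chain *Itgb1* to bind collagen, was at 25.1 and 23.6 CPM against 0.844 and 1.22 CPM. *Itgb1* was at 666 and 625 CPM against 418 and 417 CPM (log2 ratio 0.62). The hyaluronan receptor *Cd44* was nearly lacking, at 4.33 and 6.81 CPM against 65.2 and 73.9 CPM.

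Receptors and targets of Hedgehog and PDGF were present at levels near those of the stroma. The ligand gene *Dhh* was at 1.67 and 1.53 CPM in myoid cells and 237 and 255 CPM in Sertoli-like cells. Its receptor and target *Ptch1* was at 269 and 293 CPM against 323 and 348 CPM in stromal-like cells, and the target *Gli1* at 34.7 and 42.6 CPM against 58.2 and 56.6 CPM. Of 13 compared, 0 were at least 2-fold higher and 2 lower, beside 1.45% and 1.52% of all genes compared. The lower ones included the coreceptor gene *Gas1* (log2 ratio -1.03), which was under 2-fold in wild type alone (-0.94). The PDGF receptors differed in direction, *Pdgfra* at 298 and 326 CPM against 439 and 467 CPM and *Pdgfrb* at 39.00 and 36.98 CPM against 20.4 and 21.4 CPM, both under 2-fold.

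Among receptors for steroids and vasoactive ligands, the endothelin receptor *Ednrb* was higher in myoid than in stromal-like cells, at 36.1 and 29.7 CPM against 0.497 and 0.334 CPM, with a ratio of 79.3 (48.1 to 140.4). The other endothelin receptor, *Ednra*, was as high in stromal-like cells (294 and 295 against 293 and 336 CPM), and its ligand gene *Edn1* was at 53.6 and 37.8 CPM in Sertoli-like cells and 0.223 and 0.153 CPM in myoid cells. The angiotensin receptor *Agtr2* was lower, at 15.1 and 16.1 CPM against 185 and 209 CPM (log2 ratio -3.01). *Oxtr*, the oxytocin receptor gene, and the muscarinic receptors *Chrm2* and *Chrm3* were each under 1 CPM in both libraries. In all, 2 of 26 receptors compared were at least 2-fold higher, *Ednrb* and the neurturin coreceptor *Gfra2* (23.1 and 23.8 against 7.75 and 5.07 CPM), and 4 lower. Of all genes compared 1.45% were higher and 1.52% lower. *Gfra2* lay close to the limit and was under 2-fold in wild type alone (log2 ratio 0.90), which left *Ednrb*.

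Of all genes compared with stromal-like cells, 1.45% were at least 2-fold higher and 1.52% lower. Of the receptors and targets of Notch, TGF-beta and BMP, *Heyl* was the one gene of 25 past 2-fold. This Notch target was at 139.9 and 132 CPM in myoid cells against 13.2 and 15.03 CPM, and was found in 43.5% of thinned myoid cells against 5.35% and 4.40% of stromal-like and Sertoli-like cells (66.6%, 9.16% and 11.5% unthinned). The receptor *Notch3* was at 22.5 and 28.4 CPM against 21.5 and 20.5 CPM, and *Notch2* at 85.98 and 96.9 against 82.2 and 77.2 CPM. The other targets *Hey1* and *Hey2* were under 4 CPM in non-cycling myoid cells of both libraries.

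Ligands that reach the germ cell niche were more often lower than higher. Of 42 compared with stromal-like cells, 1 was at least 2-fold higher and 10 were lower (median log2 ratio -0.30). The higher one was *Bmp7*, at 49.2 and 56.5 CPM against 11.2 and 12.6 CPM and under 1 CPM in Sertoli-like cells. In the KO-labelled library alone *Ccn2*, a secreted matrix-associated protein, was past 2-fold too (log2 ratio 1.01). *Gdnf*, the growth factor that maintains spermatogonia, was low at 5.69 (4.24 to 7.48) and 7.66 (5.69 to 10.1) CPM in all myoid cells, above stromal-like cells (0.804 and 1.18 CPM) and below Sertoli-like cells (34.98 and 30.8 CPM). It was found in 7.47% of unthinned and 3.42% of thinned myoid cells, and in 0.366% and 15.3% of thinned stromal-like and Sertoli-like cells (0.854% and 32.99% unthinned). *Csf1*, another factor for spermatogonia, was at 9.53 and 7.49 CPM against 8.34 and 9.07 CPM.

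Lower ligands included *Inhba*, the activin A subunit, at 153 and 159 CPM against 1011 and 907 CPM, and *Igf1*, at 311 and 285 CPM against 1149 and 1120 CPM. The chemokine *Cxcl12* was at 417 and 403 CPM against 1292 and 1244 CPM, and *Wnt6* at 32.8 and 35.8 against 160.3 and 161 CPM. *Tgfb2* had a log2 ratio of -2.25 and pleiotrophin, *Ptn*, of -2.35. Binding proteins for insulin-like growth factors went both ways: *Igfbp5* was at 1024 and 945 CPM against 108 and 97.6 CPM, and *Igfbp6* at 332 and 389 CPM against 756 and 786 CPM, with no other gene of that list past 2-fold. In the KO-labelled library alone *Igfbp6* was just under 2-fold and 0 genes of the list were at least 2-fold lower.

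Transcription factors of the gonad were mostly shared with the stroma. *Nr2f2*, a nuclear receptor of interstitial mesenchyme, was at 620.4 and 754 CPM against 736 and 882 CPM, *Tcf21* at 303 and 329.9 against 286 and 349 CPM, and *Gata4* at 97.6 and 103 against 93.9 and 100.5 CPM. Of 28 compared, those past 2-fold were *Sox9* and *Tbx3*, both higher, and 3 genes that were lower, *Lhx9* and *Osr1* among them. Of all genes compared 1.45% were higher and 1.52% lower. In wild type alone 3 of 27 genes of the list were higher and 2 lower. *Sox9*, best known as the Sertoli cell factor, was at 35.4 and 46.96 CPM in non-cycling myoid cells against 9.14 and 5.85 CPM in stromal-like cells and 277 and 291 CPM in Sertoli-like cells. It was found in 16.9% of thinned myoid cells, 3.32% of stromal-like and 71.7% of Sertoli-like cells (31.2%, 5.70% and 91.6% unthinned).

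No other Sertoli marker was at least 2-fold higher with *Sox9*. Of 11 compared with stromal-like cells, 3, *Sox9* included, had a log2 ratio above 0 and none was at least 2-fold lower, and *Cst12*, *Cst9* and *Rhox8* were at 6.41 and 5.22, 3.12 and 3.63 and 4.68 and 4.08 CPM in non-cycling myoid cells against 10.7 and 7.57, 6.56 and 5.85 and 8.84 and 6.62 CPM. Summed over its 12 genes, the list was at 512 and 484 CPM in myoid, 595 and 597 CPM in stromal-like and 18652 and 17177 CPM in Sertoli-like cells, with *Fshr* at 0 in myoid cells of the KO-labelled library. *Osr1* was at 39.4 and 28.4 CPM against 239 and 259 CPM and *Lhx9* at 97.3 and 85.1 against 283 and 303 CPM, both factors of the early gonad.

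Vascular smooth muscle and pericytes also express *Acta2*, *Myh11* and *Tagln*, so their markers were looked at. The mural genes *Rgs5* and *Rgs4* gave 0.223 and 0 CPM and 0.112 and 0 CPM in myoid cells, and *Higd1b* 0.669 and 0.460 CPM. The 16 mural markers summed to 403 and 429.6 CPM in myoid and 925 and 958 CPM in stromal-like cells, with 1 at 0 in wild type and 4 at 0 in the KO-labelled library. Of the mural markers 11 could be compared with stromal-like cells, and 6 of these had a log2 ratio above 0 (median 0.13). Past 2-fold were *Abcc9*, a potassium channel subunit (17.2 and 19.1 against 3.33 and 3.01 CPM), which was higher, and *Ebf1* and *Vtn*, which were lower. Of all genes compared 1.45% were at least 2-fold higher and 1.52% lower. Endothelial markers summed to 75.1 and 77.5 CPM against 186 and 188 CPM in stromal-like cells, most of it from *Cdh5* (50.97 and 55.6 CPM in myoid cells).

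A few myoid cells carried many transcripts of another cell type. With at least 20 UMIs over the marker list, 5 held macrophage, 4 red cell, 5 Leydig, 2 neutrophil and 2 germ cell markers, 16 cells in all, 9 in wild type and 7 in the KO-labelled library. The 5 macrophage-marked cells held 95.6% of all macrophage UMIs in myoid cells, the 4 red cell-marked cells 98.4% of red cell UMIs, the 2 neutrophil-marked cells 99.1%, and the 5 Leydig-marked cells 42.2% of Leydig UMIs. Beside the comparison with stromal-like cells, 6 of 10 macrophage markers were at least 2-fold higher in myoid cells, at a summed 159.8 and 159.9 CPM against 8.52 and 6.13 CPM in stromal-like cells, and those values come almost wholly from these 5 cells. The counts between cycling states and between libraries are given below with and without the 16 cells.

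Many of the myoid cells were cycling, a class cut from a count and not a cell type. With cycling set as *Mki67* plus *Top2a*, genes of dividing cells, at 4 UMIs or more, 200 of 728 wild-type myoid cells (27.5%, 24.3 to 30.9) and 124 of 503 of the KO-labelled library (24.7%, 20.9 to 28.7) were cycling. Few lay near the cut: 12 and 5 cells had exactly 4 such UMIs and 8 and 6 exactly 3, while 59.2% and 64.0% had 0. The other kept cells had 25.2% (24.0 to 26.3) and 24.5% (23.3 to 25.8), and stromal-like cells outside the myoid cells 4.12% (3.34 to 5.02) and 2.86% (2.17 to 3.70). The value for stromal-like cells leaves out whatever stromal cells lie in the unnamed clusters led by cell cycle genes. After thinning to 5000 UMIs the shares in myoid cells were 22.3% (19.4 to 25.6) and 20.7% (17.2 to 24.5). Cycling cells had more UMIs, with medians of 15509 and 16301 against 10117 and 10873, and doublets were called for 16 and 5 of them.

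Between cycling and non-cycling myoid cells 373 of 13448 genes compared were at least 2-fold higher in cycling cells (2.77%) and 28 at least 2-fold lower (0.208%). *Mki67* and *Top2a* chose the cells, so these counts describe the split. All 40 mitosis genes were at least 2-fold higher (median log2 ratio 3.40), led by *Cenpf*, a kinetochore protein, at 585 and 696 CPM against 14.9 and 13.4 CPM, and *Ube2c*, which helps to end mitosis, at 472 and 575 against 11.3 and 8.17 CPM. Of 40 S phase genes 31 were at least 2-fold higher (median 1.35). Among the inhibitors and G1 cyclins 8 of 24 were higher, with the CDK inhibitor *Cdkn2c* at 199 and 185 CPM against 18.9 and 16.8 CPM, and 1, *Ccnd2*, was lower.

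**Figure D3:**
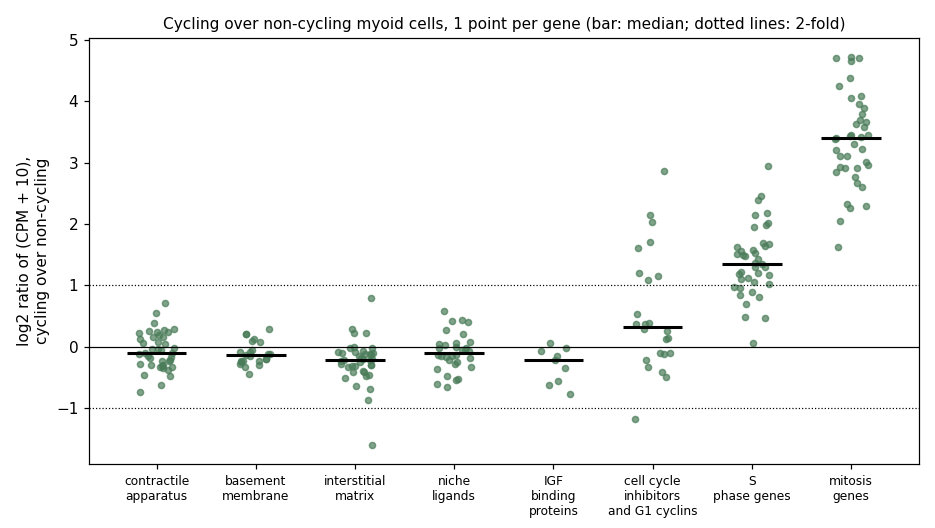
Log2 ratio of CPM (10 CPM added) in cycling over non-cycling myoid cells for 8 gene lists, with 1 point per gene, a bar at each list median and dotted lines at 2-fold. The contractile (median -0.09), basement membrane (-0.13) and interstitial matrix lists (-0.22) lie near 0, and the S phase (1.35) and mitosis lists (3.40) far above it.

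Contractile and basement membrane genes differed little by cycling state. None of 41 contractile and none of 23 basement membrane genes was past 2-fold, where 2.77% of all genes compared were higher and 0.208% lower. The medians were -0.09 and -0.13 against -0.02 over all genes compared. *Acta2* was at 3642 and 3568 CPM in cycling and 4104 and 3705 CPM in non-cycling cells. *Tagln* was lower in cycling cells of both libraries (703 and 574 against 1067 and 941 CPM, ratio 0.644 (0.619 to 0.669)), as was *Igfbp5* (592 and 560.2 against 1024 and 945 CPM, ratio 0.585 (0.562 to 0.610)), both short of 2-fold. The non-muscle myosin *Myh10*, which forms the ring that divides cells, had the highest log2 ratio of the contractile list (0.71).

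Grading the cells by *Mki67* plus *Top2a* gave the levels at 0 UMIs (753 cells), 1 to 3 (154), 4 to 9 (52) and 10 or more (272). Over these steps *Tagln* was at 1009, 1027, 643 and 653 CPM, *Igfbp5* at 1006, 919, 803 and 548 CPM and *Ccnd2*, a cyclin of early G1, at 349.8, 361, 239 and 137 CPM. *Acta2* was at 3900, 4064, 3967 and 3562 CPM, with its lowest level in the last step. *Mgp* was at 1914, 1998, 1947 and 1342 CPM, close in the first 3 steps and lower in the last.

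Of the 28 genes lower in cycling cells, most were genes of blood cells or Leydig cells held by a few non-cycling cells. *S100a9*, a neutrophil gene, had the lowest log2 ratio (-3.51), with 1169 UMIs in 8 non-cycling cells. *Ogn*, the proteoglycan osteoglycin, was at 59.4 and 50.97 CPM against 183 and 200.1 CPM, the glycolytic enzyme *Aldoa* at 57.9 and 59.9 against 206 and 165 CPM, and *Fabp3*, a fatty acid carrier, at 27.2 and 18.4 against 78.9 and 65.1 CPM. *Hmox1*, which breaks down haem, had a log2 ratio of -2.09 and the lipid carrier *Apoe* one of -1.07, and both are abundant in macrophages. Macrophage markers summed to 6.88 and 1.89 CPM in cycling and 159.8 and 159.9 CPM in non-cycling cells. Without the 16 cells marked by another type the log2 ratio of *Hmox1* was -0.44 and that of *Apoe* 0.16, and 6 genes in place of 28 were at least 2-fold lower, with 367 in place of 373 higher. The 6 were *Ogn* (-1.62), *Aldoa* (-1.48), *Ccnd2* (-1.20), the histone demethylase gene *Kdm5b* (-1.15), *Fabp3* (-1.08) and the muscle glycogen phosphorylase gene *Pygm* (-1.05), with log2 ratios without the 16 cells in brackets.

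Clustering the 1231 cells by themselves gave 5 sub-clusters, each with cells of both libraries. Their leading genes are a description, since the same counts made the sub-clusters. Sub-cluster 1 (246 cells) was led by *Top2a* and the histone gene *H1f5* and all of its cells were cycling. Sub-cluster 5 (83 cells) was led by *Cenpa*, *Cdkn3*, *Cenpf* and *Cdc20*, genes of late mitosis, and 38 of its cells were cycling by the rule. Sub-cluster 4 (226 cells) was led by *Ung* and the replication helicase genes *Mcm3*, *Mcm6*, *Mcm5* and *Mcm2*, and only 38 of its cells met the cycling rule. *Mcm3* was at 196 and 204 CPM there against 29.3 and 18.3 CPM in sub-cluster 2, and *Cenpa* at 12.3 and 6.51 CPM.

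The cycling rule by *Mki67* and *Top2a* left 188 of the 226 cells of sub-cluster 4 in the non-cycling class. In sub-cluster 4, 12 of 40 S phase genes were at least 2-fold higher than in the other myoid cells (median log2 ratio 0.73), beside 0.141% of all genes compared, and 35 of 40 mitosis genes at least 2-fold lower (-1.89), beside 0.944% of all. In sub-cluster 5 the order was the reverse, with 22 of 40 mitosis genes higher (1.09, all genes 0.587%) and 30 of 40 S phase genes lower (-1.48, all genes 1.07%). The same counts made the sub-clusters, so nothing is read from these shares. The contractile list had no gene past 2-fold in either, with medians of -0.06 and 0.22.

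Sub-cluster 2 (512 cells) was the largest, with 510 non-cycling cells and 504 in the myoid-like cluster. It had *Tagln* at 1255 and 1008 CPM, *Mgp* at 2338 and 2279 CPM and *Igfbp5* at 1230 and 1167 CPM, the highest of the 5 sub-clusters for each in wild type. Among genes found in at least 10% of its cells, the first were *Hmox1* and *Apoe*, followed by the troponin gene *Tnnt2*, the smooth muscle RNA *Carmn*, *Dner* and *Fbxl22*. Here 7 of 10 macrophage markers were at least 2-fold higher than in the other myoid cells, beside 0.245% of all genes compared (2.37% were at least 2-fold lower), at a summed 291 and 327 CPM against at most 8.70 CPM in any other sub-cluster and library, and their part in the levels of *Hmox1* and *Apoe* was not tested beyond the values without the 16 cells given above. Of 7 Leydig markers 3 were at least 2-fold higher too, at a summed 185 and 242 CPM against at most 96.9 CPM in any other sub-cluster and library, and their part was not tested. The contractile list had a median of 0.22 with none of 41 genes past 2-fold.

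Sub-cluster 3 (164 cells) was the farthest from the myoid profile. It held no cycling cell, 98 of its cells lay in the stromal-like and 65 in the myoid-like cluster, and *Acta2* had a median of 23 UMIs per cell where the other sub-clusters had 42.5 to 54. Its leading genes were *Cyp26b1*, which breaks down retinoic acid, *Tgfb2*, *Lum*, *Dpt*, *Nrg1* and *Osr1*. Of 12 stromal markers 7 were at least 2-fold higher than in the other myoid cells (median log2 ratio 1.79), beside 0.915% of all genes compared, with *Dcn* at 1538 and 1900 CPM, as were 9 of 39 interstitial matrix genes (0.60). The contractile list was lower (2 of 41 at least 2-fold, median -0.45, all genes 1.74%), with *Tagln* at 518 and 519 CPM, still above the 50.6 and 50.4 CPM of stromal-like cells. Doublets were called for 25 of its cells (15.2%) against 0.586% to 7.72% in the other sub-clusters, and the part of mixed droplets was not tested.

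**Figure D4:**
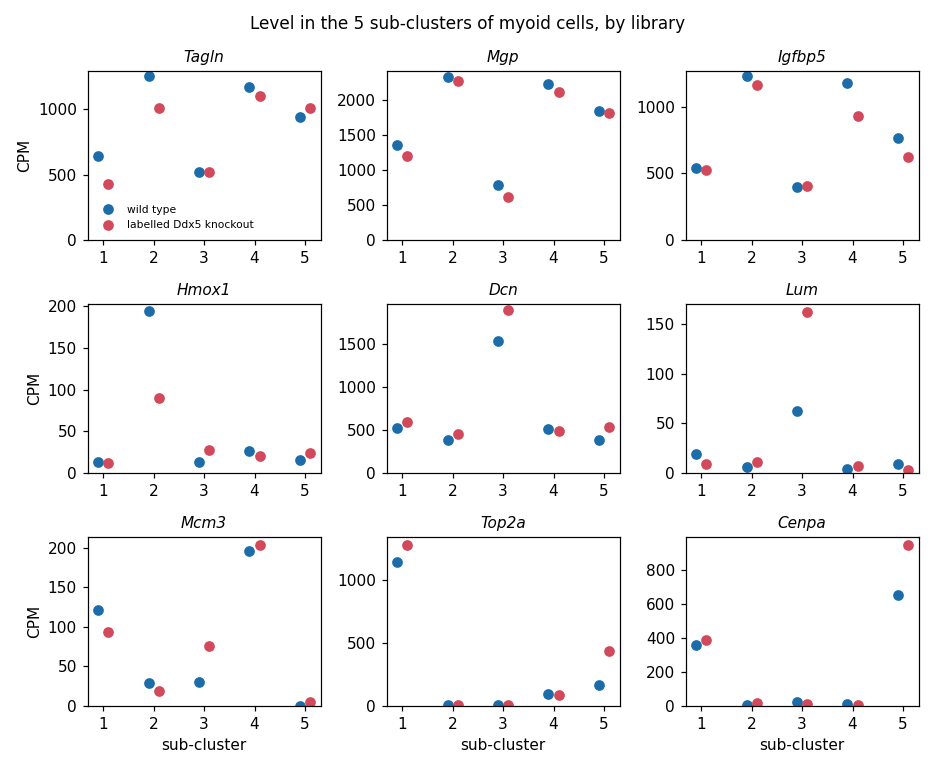
Level (CPM) of 9 genes in the 5 sub-clusters, with 1 point per library. *Tagln*, *Mgp* and *Igfbp5* are low in sub-cluster 3, where *Dcn* and *Lum* are high, *Mcm3* peaks in sub-cluster 4 (196 and 204 CPM), *Top2a* in 1 (1142 and 1281 CPM) and *Cenpa* in 5 (653 and 949 CPM).

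Between the libraries the myoid cells differed in few genes. Of 13448 genes compared, 7 were at least 2-fold higher in the KO-labelled library (0.0521%) and 8 at least 2-fold lower (0.0595%), with 1 library per genotype and therefore no test. None of 41 contractile, 23 basement membrane, 39 interstitial matrix or 13 Hedgehog and PDGF genes was past 2-fold (medians -0.05, -0.03, -0.03 and 0.08). Of the 7 higher genes 4 were haemoglobin genes, with *Hbb-bs* at 52.2 and 612 CPM, and the red cell markers summed to 88.6 and 1156 CPM, which was 6.83 and 11.2 CPM without the 16 marked cells. The other 3 were *Hoxc10*, the steroid enzyme gene *Cyp17a1* (2.01 and 16.5 CPM) and the interferon-induced gene *Iigp1*. The 8 lower genes were *Cavin2*, *Nr4a1*, *Fos*, *Fosb*, the metallothionein gene *Mt1* and the neutrophil genes *Ngp*, *Camp* and *Lcn2*. Without the 16 marked cells 2 genes were at least 2-fold higher, *Hoxc10* and *Iigp1*, and 4 lower, *Cavin2*, *Nr4a1*, *Fos* and *Fosb*.

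*Iigp1* was at 1.45 (0.772 to 2.48) and 15.6 (12.7 to 18.97) CPM, from 13 UMIs in 13 cells of wild type and 102 UMIs in 13 cells of the KO-labelled library, and its level in the other kept cells was 1.19 and 6.12 CPM. It encodes a GTPase that interferon turns on against intracellular parasites. It was named after its values were seen, as were *Lcn2*, *S100a9* and the other blood cell genes outside the lists.

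*Hoxc10*, a homeobox gene of posterior body position, had the highest ratio of the genes with UMIs in 10% or more of the cells in the library where they were higher, at 22.98 (19.9 to 26.3) and 61.3 (55.4 to 67.6) CPM, a ratio of 2.67 (2.25 to 3.17). *Hoxd11*, of the same class, was at 9.70 (7.77 to 11.97) and 22.4 (18.9 to 26.3) CPM and *Hoxc9* at 17.96 (15.3 to 20.95) and 35.7 (31.3 to 40.6) CPM. The other kept cells differed in the same direction, with *Hoxc10* at 9.43 and 22.9, *Hoxd11* at 4.60 and 13.2 and *Hoxc9* at 11.4 and 23.1 CPM, so the difference was not limited to myoid cells. *Hoxc10* overlaps the annotated *Hoxc5* gene on the same strand, *Hoxd11* overlaps *Gm28309* and *CT010467.1* overlaps *AY036118*, and counts of each pair may not be separable. The same limit holds for *Col3a1*, *Dhh*, *Itga1*, *Notch2*, *Pdgfra* and *Top2a*, which also overlap another annotated gene on their strand. The rRNA gene *CT010467.1* was at 41.7 and 78.1 CPM in myoid and 54.3 and 98.4 CPM in the other cells.

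Other genes that were higher in the KO-labelled library were *Mical2*, which oxidises actin (16.3 and 31.1 CPM, other cells 8.01 and 8.63 CPM), and *Anks1b* (27.7 and 51.2 CPM, other cells 5.38 and 7.62 CPM). Their ratios were 1.91 (1.54 to 2.38) and 1.85 (1.57 to 2.19) in myoid cells and 1.08 (0.956 to 1.22) and 1.42 (1.24 to 1.62) in the other kept cells, under 2-fold on the scale with 10 CPM added. Whether these differences differ between cell types was not tested. *Lum* (17.6 and 31.1 CPM) had a log2 ratio of 0.57, which was -0.11 without sub-cluster 3.

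The genes that were lower in the KO-labelled library with and without the marked cells were *Cavin2* and 3 early response genes. *Cavin2*, a coat protein of caveolae, was at 121 (114 to 129) and 45.2 (40.2 to 50.7) CPM, with 27.2 and 9.35 CPM in the other kept cells. The others were *Nr4a1* (39.3 and 11.95 CPM), *Fos* (177 and 81.5 CPM) and *Fosb* (29.9 and 9.81 CPM), transcription factors induced within minutes by stimuli that include tissue dissociation. Of the 21 dissociation response genes 18 had a log2 ratio below 0, as had 50.5% of all genes compared, and 3 were at least 2-fold lower, with a median of -0.31. In the other kept cells the same list had a median of -0.34, with none of 21 above 0, where 44.1% of all genes compared were above 0. *Junb*, of this list, was at 322 and 184 CPM. Against stromal-like cells 1 gene of the list, *Junb* (log2 ratio 1.91), was at least 2-fold higher in myoid cells and 3 were lower, with a median of 0.07. These counts changed with the library: 3 were higher and 4 lower in wild type alone (median 0.08), and 3 higher and 1 lower in the KO-labelled library alone (0.28).

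**Figure D5:**
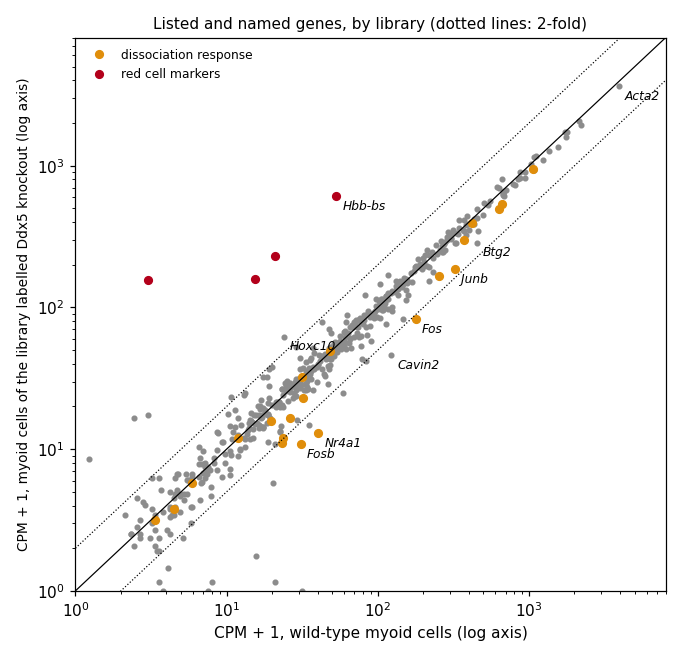
CPM plus 1 in wild-type (x) against KO-labelled myoid cells (y), log axes, for 514 listed or named genes, with dotted lines at 2-fold. *Acta2* lies near the diagonal, haemoglobin genes (red) far above it, and dissociation response genes (orange) mostly below.

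The myoid cells that were not cycling showed a further small shift. Of 40 S phase genes 37 had a log2 ratio above 0 in non-cycling cells of the KO-labelled library (median 0.22), beside 50.7% of all genes compared (median 0.00), none past 2-fold, while 9 of 33 mitosis genes were above 0 (median -0.19). The non-cycling class was made up differently in the libraries: sub-cluster 4, led by replication genes, held 88 of 528 non-cycling cells in wild type (16.7%) and 100 of 379 in the KO-labelled library (26.4%), and sub-cluster 5, led by mitosis genes, 36 (6.82%) and 9 (2.37%). The part of this makeup in the shift was not tested. *Mcm3* was at 53.05 and 74.4 CPM, *Mcm2* at 38.8 and 46.7 CPM and *E2f1*, a factor that turns on replication genes, at 28.4 and 44.7 CPM. Over all myoid cells 19 of 40 were above 0 (median -0.02), and the share of cycling cells by *Mki67* and *Top2a* overlapped between the libraries in its intervals.

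Signals that the myoid cells might receive differed little between the libraries. *Ptch1* was at 263 (252 to 273) and 295 (282 to 308) CPM and *Ednrb* at 38.4 (34.4 to 42.6) and 28.96 (24.98 to 33.4) CPM. *Hhip*, a Hedgehog target that binds the ligand, was at 102 (95.4 to 109) and 145 (136 to 155) CPM, a ratio of 1.42 (1.30 to 1.56), and the oestrogen receptor *Esr1* at 29.8 (26.3 to 33.6) and 43.1 (38.2 to 48.4) CPM, a ratio of 1.45 (1.22 to 1.72), both intervals of the ratio lying above 1 for counting error alone. In the other kept cells *Hhip* was at 65.7 and 70.96 CPM and *Esr1* at 12.6 and 14.2 CPM.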

How the data were processed

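Single-cell suspensions of whole testes at postnatal day 2 were measured with a Chromium 3′ v3 kit. Per the labels and the study's methods, the authors made the deposited table of UMI counts per gene and barcode with Cell Ranger 3.1.0 against GRCm38 with GFP and CRE sequences added, and the submitters' processing notes also name Seurat 3.1.5. The deposited counts were not normalized and precede the filter on cells. Barcodes ending in 3 were read as wild type and those ending in 4 as KO-labelled, since only this pairing gives the cell numbers the study states after filtering, exactly where more than 2000 genes are required of a cell and with 1 wild-type cell more under the limit of at least 2000 used here.

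UMIs were summed over the cells of a group and divided by the group's total to give CPM. Genes with at least 20 UMIs over both groups were compared by the log2 ratio of CPM with 10 CPM added, which understates the ratio of low genes, and 2-fold was the size used for calls. Ratios printed without log2 are ratios of CPM with nothing added, with an exact conditional binomial interval. With 1 library per genotype nothing was tested and no p-value is printed, since cells are not replicates. Cells were clustered as in the study (SCTransform, 15 components, resolution 0.1; Seurat 5.3.0, sctransform 0.4.2, R 4.3.3), and myoid cells again with scanpy 1.11.5 (Leiden, 2000 variable genes, resolution 0.3). Doublets were called with Scrublet and kept, except in one alternative. Thinning drew 5000 UMIs per cell without replacement. Sums and intervals used pandas 2.3.3, SciPy 1.17.1 and NumPy 2.4.6 under Python 3.11.15, and the ratio script was tested on simulated data.

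Named genes were those of the gene lists and, among genes with at least 50 UMIs seen in 10% or more of the cells on the higher side, the 15 highest and 10 lowest in myoid against other cells and the 10 highest and 10 lowest in the other comparisons. The members and lists were chosen with earlier results of these data known. Values of some listed genes are not reported here. Alternatives changed the 3 gene limits, cell filters, doublets, depth, scaling, pseudocount, low-count filter, cycling threshold, library and resolution. Leaving out sub-cluster 3 or the cells marked by another type, and comparing non-cycling myoid with non-cycling stromal-like cells, were added after seeing the data. UMIs of 1 cell share its capture, so intervals cover counting error only.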

Additional observations from a re-analysis of the deposited data

Results flagged for a closer look

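Outside the cell filter, 5 barcodes of wild type and 6 of the KO-labelled library met the 3 gene limits for myoid cells, and none of these entered a comparison. GFP, whose sequence had been added to the reference, gave 6 UMIs in wild-type myoid cells.

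Several genes had log2 ratios of opposite sign in the libraries, and these differences were not tested. Myoid cells against other kept cells gave the neutrophil genes *Ngp* at 2.02 in wild type and -0.17 in the KO-labelled library, *Camp* at 1.56 and -0.10, and *Retnlg* at -0.11 and 0.43. For the haemoglobin genes the values were -0.53 and 0.88 for *Hbb-bs* and -0.41 and 1.30 for *Hbb-bt*. Myoid cells holding at least 20 UMIs of neutrophil markers numbered 2 and of red cell markers 4. *Id4*, an inhibitor of helix-loop-helix factors, was at -0.36 and 0.34, the retinoic acid enzyme *Cyp26b1* at -0.19 and 0.34, and the NF-kappa-B inhibitor *Nfkbia* at 0.45 and -0.17.

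Cycling against non-cycling myoid cells gave -2.63 in wild type and 5.61 in the KO-labelled library for *Hbb-bs*, -1.84 and 2.87 for *Hba-a1*, and -1.35 and 2.88 for *Hba-a2*. Red cell markers summed to 8.13 CPM in cycling cells of wild type and 3264 CPM in those of the KO-labelled library. Over both libraries 4 myoid cells held 98.4% of the red cell UMIs. Without the 16 cells marked by another type these sums were 8.13 and 3.34 CPM, and *Hbb-bs* was at 4.38 and 2.38 CPM in cycling and 3.40 and 6.49 CPM in non-cycling cells. *Cnn1*, the smooth muscle calponin, was at 0.46 and -0.49, the protease gene *Adamts1* at -0.22 and 0.35, and the receptor gene *Igf2r* at -0.29 and 0.33.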

How the results depend on the processing

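No paired analysis was possible because the barcodes carry no library number and each genotype forms 1 library. The share of myoid cells followed the *Myh11* limit and depth: 15.8% in wild type and 14.9% in the KO-labelled library with at least 1 *Myh11* UMI, 5.88% and 4.83% with at least 4, and 6.05% and 4.53% after thinning to 5000 UMIs, which leaves fewer *Myh11* UMIs per cell. The cycling share was 31.6% in wild type and 27.04% in the KO-labelled library with at least 2 UMIs of *Mki67* plus *Top2a*, 31.6% and 28.6% without sub-cluster 3, 24.0% and 20.5% with at least 8 UMIs, and 22.3% and 20.7% after thinning.

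Counts past 2-fold moved mainly with the pseudocount. With 1 CPM added, 761 genes were higher and 1779 lower in myoid than in other cells in place of 294 and 572, with the median log2 ratio of all genes at -0.13 in place of -0.03. For cycling cells 669 were higher and 255 lower in place of 373 and 28, and between libraries 18 and 67 in place of 7 and 8. With 50 CPM added the counts were 90 and 150, 153 and 6, and 4 and 0. For non-cycling myoid against non-cycling stromal-like cells 239 genes were lower in place of 572. Without the 16 cells marked by another type 6 genes were lower in cycling cells, and 2 were higher and 4 lower between the libraries. With *Acta2* at 10 and *Myh11* at 4 UMIs or more 3 genes were higher between the libraries and 12 lower, and among non-cycling cells 3 and 9. At resolution 0.6 there were 8 sub-clusters in place of 5. Of the summary values under an alternative, 73 stayed within the range set for no change and 31 moved.

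The log2 ratio changed sign for 4 genes: *Clu* to 0.49 for non-cycling myoid against non-cycling stromal-like cells, *Apoe* to 0.16 for cycling cells and *Hmox1* to 0.095 between the libraries without the 16 marked cells, and *Lum* to -0.11 between the libraries without sub-cluster 3. Depth limits what can be said of low genes: the *Myh11* limit of 2 UMIs depends on how deeply a cell was read, and levels near 1 CPM rest on few UMIs. One library per genotype limits every comparison between them, whatever the number of cells.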
